A study of Saccharomyces cerevisiae S288C with 72 samples.

Results

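Wild-type budding yeast, Saccharomyces cerevisiae of the S288C background, was compared at 11, 12 and 13 h of growth with 7, 8 and 9 h. The comparison took 6 of the 72 libraries of the series, 3 for the earlier and 3 for the later window, and they were chosen by strain and hour alone. Both windows share genotype, medium and handling and differ in hour: no gene was deleted, and the yeast grew in YNB with ammonium and 2% glucose at 30 °C and 200 rpm, as 50 ml in a 500 ml baffled flask. Cells were filtered, frozen in liquid nitrogen and extracted with phenol, and stranded total RNA libraries were sequenced after ribosomal RNA removal. The other 2 strains of the series lack NDE1, NDE2 and NDI1, or COX4, and entered no test here. No replicate culture is stated and each hour is 1 library, so a p-value sets the difference between windows against the spread between hours of this time course. Glucose, ethanol and cell number were not analysed here.

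Yeast on glucose ferments and represses genes for other carbon sources through the repressor Mig1, which the kinase Snf1 controls. As glucose runs down, low-affinity hexose carriers give way to high-affinity ones, the stress factors Msn2 and Msn4 become active, ribosome production slows, and genes of respiration and of the glyoxylate cycle follow once glucose is gone, at the diauxic shift. The hours were chosen to lie ahead of that shift, while HXT3, for a low-affinity carrier, is still expressed.

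Levels are TPM as deposited, a measure of transcript abundance scaled by transcript length and library total, and differences are on a log2(TPM + 1) scale, later window minus earlier window, with the standard error (SE) of the fit. A gene was called when the Benjamini-Hochberg adjusted p of limma was under 0.05 and the difference was at least 2-fold. Between 50 and 121 genes per library stood at the lowest deposited value of 0.1 TPM, and the 10 most abundant genes held 15.8% to 19.3% of the total from 7 to 13 h. The library of 9 h was closer to 11 h than to its own window: across genes its Spearman correlation was 0.974 with 11 h, 0.964 with 8 h and 0.937 with 7 h. That of 7 h with 8 h was 0.962, so 7 h lay as far from its window as 9 h. Without the 9 h library 297 genes were called higher and 399 lower, against 158 and 136 with it. Coding length also moved with the contrast, from a median difference of 0.12 in 270 genes of up to 300 bases to -0.29 in 475 genes over 3000 bases, and its part in single results was not tested, though removing a length trend from each library left 161 and 137 calls. The libraries from 7 to 13 h lay in order of hour along 1 plate row, so position and hour cannot be told apart.

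The hexose carrier genes changed places between the windows, with HXT3 still high. HXT1, which encodes a low-affinity carrier induced by high glucose, read 769, 440.0 and 164 TPM at 7, 8 and 9 h and 81.0, 65.9 and 37.4 TPM at 11, 12 and 13 h. Its level thus fell at every step, and it was called lower by -2.68 (SE 0.61, adjusted p = 0.0489). HXT3, the other low-affinity carrier gene, read 1532, 833 and 1049 TPM and then 1850, 2568 and 2077 TPM. The later HXT3 values lay above the earlier ones without overlap, but the difference of 0.96 (SE 0.27, adjusted p = 0.0468) stayed under 2-fold. HXT3 was at 1639 TPM at 14 h and 78.6 TPM at 16 h, so both windows lie before its loss, which the choice of hours fixed.

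Of 6 genes on the list of high-affinity carriers, 4 rose, no member fell and the median was 2.02, against -0.15 for all 5714 genes tested. HXT4 went from 272, 192 and 526 TPM to 1711, 2521 and 2880 TPM (2.94, SE 0.36, adjusted p = 0.00378). HXT5, whose carrier is typical of slow growth and reserves, went from 75.9, 249 and 383 TPM to 860.1, 1269.7 and 1404 TPM (2.57, SE 0.59, adjusted p = 0.0481). Both genes had their highest earlier value at 9 h, and without that library the differences were 3.34 and 3.06. HXT7 read 396, 191 and 505 TPM and then 1019.7, 1314 and 1727 TPM (1.97, SE 0.36, adjusted p = 0.0148). HXT6 read 180.3, 141 and 229 TPM and then 559.8, 717 and 1069.9 TPM (2.06, SE 0.28, adjusted p = 0.00351). HXT6 and HXT7 are near-identical neighbours, so the split of reads between them is uncertain. HXT2 was not called and stayed under 11 TPM in all 6 libraries, with a difference of 0.34. HXT10, of the same family but on no list, was called from 0.625, 0.748 and 1.08 TPM to 4.03, 5.44 and 5.86 TPM, a gene picked after its values were seen.

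**Figure D1:**
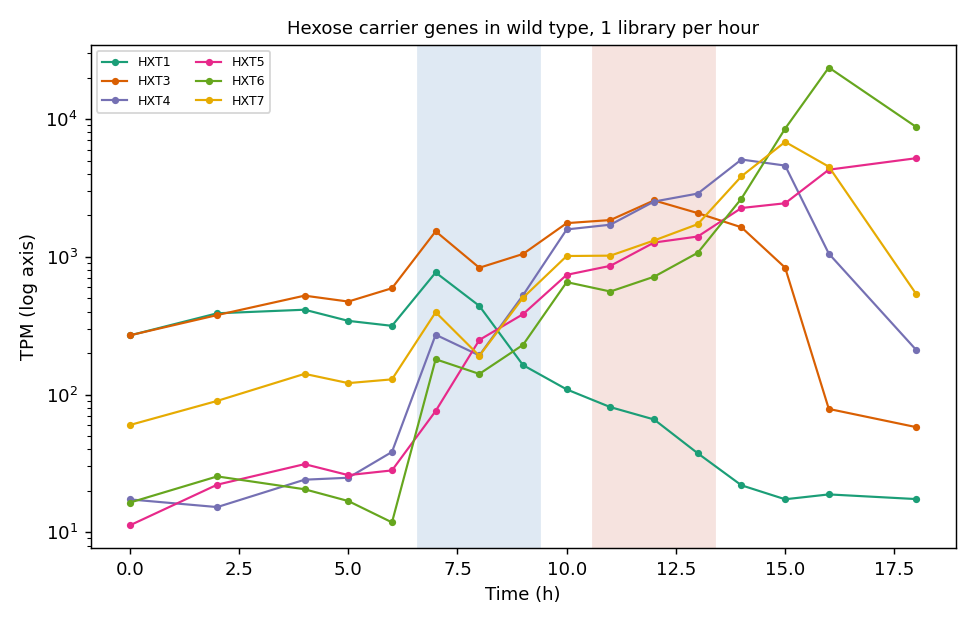
TPM on a log axis of 6 hexose carrier genes in wild type from 0 to 18 h, 1 point per library; the blue band marks 7 to 9 h and the red band 11 to 13 h. HXT1 falls from 769 to 37.4 TPM between 7 and 13 h, HXT4, HXT5, HXT6 and HXT7 rise, and HXT3 stays above 800 TPM from 7 to 15 h.

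Between the windows 158 genes were called higher, 2.77% of 5714 tested, and 136 lower, 2.38%. Counted without a test, 800 genes, 14.0%, had all 3 later values above the 3 earlier ones, and 1309, 22.9%, had all 3 below. At an unadjusted p under 0.05, 628 genes, 11.0%, were higher and 1153, 20.2%, lower. A slope over the 7 libraries from 7 to 13 h, which brings in 10 h and was scaled to 4 h, called 237 rising genes, 4.15%, and 192 falling genes, 3.36%. The median gene lay at -0.15, and median-of-ratios scaling, which moves it to -0.02, called 194 higher and 70 lower. The share of calls that were higher is thus 53.7% or 73.5% by scaling, and the lower calls near 2-fold depend on it. Calls also rest on single hours: without 8 h 5 genes were called higher (AGP1, FIT3, JEN1, SIT1 and the unnamed YHR033W) and 0 lower by limma, while 637 and 761 had an unadjusted p under 0.05.

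**Figure D2:**
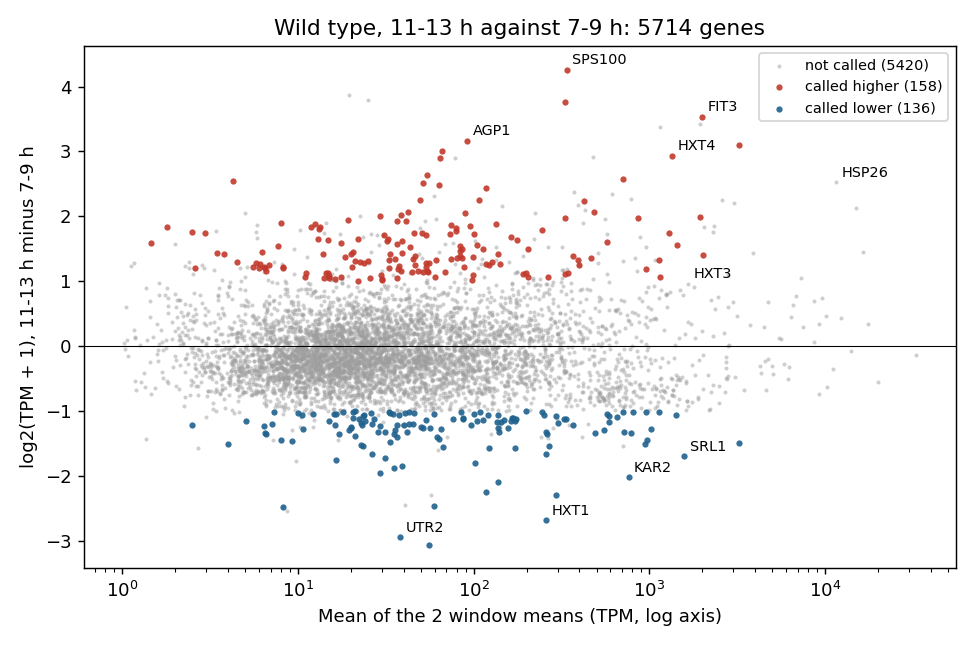
Difference in log2(TPM + 1) between 11-13 h and 7-9 h against the mean of the window means in TPM (log axis), 1 point per gene for 5714 genes; red points are the 158 called higher and blue points the 136 called lower. SPS100 at 4.26 is the highest called gene, and among the named points UTR2 at -2.94 is the lowest; HSP26 is high and not called.

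The highest called gene was SPS100 (YHR139C, chromosome VIII 378219 to 379199), for a protein of the spore wall. It read 16.4, 30.7 and 56.3 TPM at 7, 8 and 9 h, 201 TPM at 10 h and 370.1, 681 and 874 TPM at 11, 12 and 13 h. Each hour lay above the one before, and the difference was 4.26 (SE 0.49, adjusted p = 0.00762). NCA3, of the SUN family of wall proteins, followed with 15.2, 55.7 and 94.9 TPM against 463, 711 and 654 TPM (3.75, SE 0.67, adjusted p = 0.0346). Next among named genes came FIT3, AGP1, FIT2, SIT1, HXT4, POT1, HXT5, JEN1, SPG4, SSA3, YLR312C, THI4 and HXT6, between 3.53 and 2.06. At the other end stood UTR2 (YEL040W, chromosome V 78053 to 79456), for a chitin cross-linking enzyme of the cell wall. UTR2 read 109, 74.3 and 24.1 TPM and then 10.5, 6.60 and 4.20 TPM (-2.94, SE 0.60, adjusted p = 0.0418). It was followed, between -2.68 and -1.70, by HXT1, SPS4, SIL1, GPP1, ERO1, CWP1, KAR2, SFG1, DOG1, YER156C, BFR1, IRC4, ATG17 and SRL1. A noncoding gene, YNCH0011W, overlaps SPS100, and the counting strand is not given in the sources used here.

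A few maltose genes and single enzymes of sugar use rose. Of 9 invertase and maltose genes 3 were called higher and 0 lower, against 2.77% and 2.38% of all genes. MAL33, for an activator of maltose genes, rose by 1.63 (SE 0.24), the maltose carrier gene MAL31 by 1.15 (SE 0.23) and MAL11 by 1.07 (SE 0.24). SUC2, the invertase gene repressed by glucose, read 46.8, 45.7 and 33.9 TPM and then 57.9, 63.4 and 76.6 TPM, which did not overlap but was not called (0.64, SE 0.21, adjusted p = 0.0705). It reached 268 TPM at 14 h. HXK1, for hexokinase 1, went from 527, 682 and 1066 TPM to 1383, 1518 and 1683 TPM and was called (1.07, SE 0.27, adjusted p = 0.0375), but not with median-of-ratios scaling. HXK2, for the hexokinase that serves Mig1 repression, was not called (-0.46, SE 0.26), and neither was MIG1 (0.62, SE 0.20).

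Of 16 glycolytic genes 1 was called higher and 2 lower, against 2.77% and 2.38% of all genes, with a median of -0.18. PFK26, for the main 6-phosphofructo-2-kinase, rose from 13.2, 23.0 and 22.7 TPM to 37.9, 40.4 and 42.4 TPM (1.04, SE 0.23, adjusted p = 0.0238). ENO2, for the main glycolytic enolase, fell from 7308, 5255 and 2212 TPM to 1472, 1709 and 1496 TPM (-1.50, SE 0.39, adjusted p = 0.0442), and PYK2, for the minor pyruvate kinase, fell by 1.03. Both lower calls were lost with median-of-ratios scaling, and ENO2 shares sequence with ENO1. TDH3, the most abundant of the glycolytic genes named here, stayed between 11472 and 16144 TPM, with a difference of -0.08 (SE 0.26). Of 35 genes of glucose sensing and repression 0 were called by limma, with 4 higher and 3 lower at an unadjusted p under 0.05, near the 11.0% and under the 20.2% of all genes. GPP1, for glycerol-3-phosphatase, fell from 613, 696 and 198 TPM to 96.0, 98.1 and 73.9 TPM (-2.30, SE 0.46), and GUT2, for the mitochondrial glycerol-3-phosphate dehydrogenase, rose by 1.15 (SE 0.27). DOG1, for a 2-deoxyglucose-6-phosphate phosphatase, fell by 1.87 (SE 0.35), and its close copy DOG2 was called at -1.14, so reads may be shared between them. The call of DOG2 was lost with median-of-ratios scaling.

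Glyoxylate cycle and gluconeogenic genes rose in part. Of 15 tested, 5 were called higher and no member lower, against 2.77% and 2.38% of all genes, with a median of 0.53. The 5 were JEN1, MLS1, IDP2, AGX1 and MDH2. JEN1, for the lactate and pyruvate carrier, read 11.1, 15.3 and 17.1 TPM and then 61.3, 98.5 and 106 TPM (2.51, SE 0.25, adjusted p = 0.000487). MLS1, for malate synthase, read 3.90, 8.48 and 10.6 TPM and then 23.1, 31.6 and 38.5 TPM (1.95, SE 0.32, adjusted p = 0.0109). The later levels were small beside those after the shift, at 3074 TPM for JEN1 and 1099 TPM for MLS1 at 16 h. AGX1 stood higher, at 352, 375 and 384 TPM at 11, 12 and 13 h, against 2338 TPM at 16 h. ICL1, for isocitrate lyase, was not called at 18.6, 31.9 and 19.8 TPM against 25.3, 34.1 and 28.7 TPM (0.34, SE 0.24, adjusted p = 0.338). PCK1 and FBP1, for the enzymes specific to gluconeogenesis, were not called either (0.49, SE 0.23, and 0.53, SE 0.28) and stood under 25 TPM in all 6 libraries. ICL1 was at 1051 TPM, FBP1 at 869 TPM and PCK1 at 719 TPM at 16 h. These 3 were thus still low at 13 h beside their level at 16 h.

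Genes of fatty acid oxidation rose in part. Of 20 genes for fatty acid oxidation and the carnitine shuttle, 5 were called higher and 14 were higher without overlap (14.0% of all genes were), with a median of 0.61. POT1, for the peroxisomal thiolase, rose from 6.54, 14.7 and 28.4 TPM to 103, 123 and 111 TPM (2.90, SE 0.45, adjusted p = 0.0159). CRC1, for the mitochondrial carnitine carrier, rose by 1.83 (SE 0.39), POX1, for acyl-CoA oxidase, by 1.65 (SE 0.27), CAT2, for carnitine acetyltransferase, by 1.42 (SE 0.25) and SPS19, for a dienoyl-CoA reductase, by 1.35 (SE 0.35). Of 12 genes for the use of ethanol and acetate 2 rose, against 2.77% of all genes called higher. The acetate carrier gene ATO2 rose by 1.56 (SE 0.26) and ACS1, for acetyl-CoA synthetase, by 1.18 (SE 0.19).

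Of 22 genes encoding subunits of complexes II to IV 0 were called by limma, with a median of 0.26. Of 17 ATP synthase genes 0 were called, with a median of 0.29. At an unadjusted p under 0.05, 3 of the 22 and 2 of the 17 were higher, near the 11.0% of all genes. Without overlap 7 of the 22 were higher and 1 lower, and 4 of the 17 higher and 0 lower. The shares of all genes were 14.0% and 22.9%, and the median gene lay at -0.15. The respiratory genes deleted in the other strains were all expressed. NDE2, for an external NADH dehydrogenase, went from 6.67, 20.2 and 19.9 TPM to 43.9, 62.3 and 65.4 TPM (1.93, SE 0.40, adjusted p = 0.0293). NDE1, the more abundant of the external pair, went from 127, 225 and 228 TPM to 358, 406 and 356 TPM (0.99, SE 0.25, adjusted p = 0.0359) and narrowly missed the 2-fold threshold, which it passed with median-of-ratios scaling. NDI1, the internal enzyme, read 107 to 148 TPM (-0.03, SE 0.20), and COX4 read 409 to 606 TPM (0.30, SE 0.21). CIT1, for mitochondrial citrate synthase, was higher without overlap but under 2-fold (0.80, SE 0.21, adjusted p = 0.0419).

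Transcription factors that govern the shift were among the genes that rose. Of 17 factors listed 4 were called higher and 0 lower, against 2.77% and 2.38% of all genes, and the median was 0.30. Called were ERT1 (1.45, SE 0.22), for a regulator of gluconeogenesis, USV1 (1.33, SE 0.27), and XBP1 (1.22, SE 0.26), for a stress-induced repressor. ADR1 (1.13, SE 0.27), for an activator of ADH2 and of peroxisomal genes, was also called. ADR1 read 4.47, 5.87 and 10.0 TPM and then 14.9, 18.6 and 13.0 TPM. HAP4, for the activating subunit of the Hap complex of respiration, was not called, at 34.3, 45.0 and 45.1 TPM against 57.4, 56.4 and 46.6 TPM (0.36, SE 0.20), and reached 306 TPM at 16 h.

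Several stress genes climbed from hour to hour within the earlier window and were higher still in the later one, without a call. HSP26, for a small heat-shock protein, read 604, 4711 and 10220.0 TPM at 7, 8 and 9 h and 15971, 18214 and 19198 TPM at 11, 12 and 13 h. The windows did not overlap, yet HSP26 was not called (2.53, SE 1.09, adjusted p = 0.191), and its values within 7 to 9 h spanned a wider range than the difference between windows. GRE1, for a hydrophilin, read 46.5, 211 and 682 TPM and then 1656, 1925 and 2385 TPM (3.37, SE 1.01, adjusted p = 0.0983). SIP18 (3.42, SE 1.37), TKL2 (2.91, SE 1.02) and GND2 (2.18, SE 0.94) had the same form and were not called, all 5 being genes picked after their values were seen, for this form. HSP12 peaked at 18325 TPM at 9 h and overlapped between windows. Of 48 genes on the Msn2/Msn4 list 1 was called, HXK1, while 28 were higher without overlap and 2 lower, against 14.0% and 22.9% of all genes, with a median of 0.84. Without the 9 h library 14 of them were called, and the slope from 7 to 13 h called 14. Over all 5714 genes these fits called 297 and 237 higher. Without 7 h 7 of the 48 were called, against 148 of all genes called higher. Without 8, 11, 12 or 13 h 0 of the 48 were called by limma, against 5, 121, 63 and 58 of all genes.

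Stationary phase genes rose in part. Of 14 genes tested 6 were called higher and no member lower, against 2.77% and 2.38% of all genes, with a median of 0.95. The 6 were SPS100, NCA3, SPG4, SPG1, SNZ1 and SNO1. SPG4 read 14.7, 42.3 and 61.3 TPM and then 179.8, 135 and 270.3 TPM (2.43, SE 0.54, adjusted p = 0.0436), and SPG1 was higher by 1.85 (SE 0.35). SSA3, for a heat-shock protein of the Hsp70 class made in post-log cells, rose from 21.9, 33.7 and 59.5 TPM to 137, 181 and 206 TPM (2.25, SE 0.33, adjusted p = 0.00744). Of 25 Hsf1 chaperone genes, a list without SSA3, 0 were called by limma, with a median of 0.37. At an unadjusted p under 0.05 by limma 1 was higher, under the 11.0% of all genes. Without overlap 9 were higher and 0 lower, against 14.0% and 22.9% of all genes. Of 15 glycogen genes 2 rose, GLC3, for the branching enzyme, by 1.09 (SE 0.21) and SGA1, for a glucoamylase, by 1.05 (SE 0.24), and 10 were higher without overlap, against 14.0% of all genes. ATH1, for acid trehalase, was the 1 called of 7 trehalose genes (1.31, SE 0.24). GTT1, for a glutathione transferase, was the 1 called of 27 antioxidant genes (1.60, SE 0.28), near the 2.77% called higher over all genes. Without overlap 10 of the 27 were higher and 4 lower, against 14.0% and 22.9% of all genes.

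The stress element STRE, read as AGGGG on either strand, is the site of Msn2 and Msn4. Over the 300 bases before the start codon it occurred in 22.5% of 5703 windows of tested genes, in 75.0% of 48 Msn2/Msn4 genes, in 27.2% of 158 genes called higher and in 12.5% of 136 called lower. The stretch from 300 to 101 bases before SPS100 is shown because it belongs to the highest called gene (chrVIII:379300-379499, minus strand, RefSeq sequence of assembly R64, coordinates as in sacCer3), with STRE in capitals, 169 and 140 bases before the start codon. The windows of UTR2, the lowest called gene with a symbol, and of HXK1 hold no AGGGG.
SPS100: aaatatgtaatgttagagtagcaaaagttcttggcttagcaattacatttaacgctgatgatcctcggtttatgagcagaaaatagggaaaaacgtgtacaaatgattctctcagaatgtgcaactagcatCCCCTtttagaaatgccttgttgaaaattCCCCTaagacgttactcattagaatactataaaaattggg

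Of the lists, that of the iron regulon held the most genes called higher. Of 31 genes of the iron regulon 8 were called higher and no member lower, 22 were higher without overlap, against 14.0% of all genes, and the median was 0.84. FIT3 and FIT2 encode mannoproteins that hold iron-bearing siderophores in the wall. FIT3 read 266, 337 and 276 TPM at 7, 8 and 9 h and 1940.4, 3712 and 5379 TPM at 11, 12 and 13 h, an increase of 3.53 (SE 0.34, adjusted p = 0.00052). FIT2 read 436, 536 and 1223 TPM and then 4391, 6054 and 6774 TPM (3.10, SE 0.37, adjusted p = 0.00351). Both were still higher at 16 h, at 9327 and 13995 TPM. SIT1 and ARN1 encode siderophore carriers. SIT1 went from 17.0, 11.7 and 11.9 TPM to 77.7, 139 and 138 TPM (3.004, SE 0.26, adjusted p = 0.000206), and ARN1 from 133, 131 and 129.9 TPM to 375, 591 and 619 TPM (1.97, SE 0.23, adjusted p = 0.002). ARN2, for a further siderophore carrier, FTR1 and FET3, for the high-affinity iron permease and its oxidase, and FRE3, for a ferric reductase, were called at 1.42, 1.39, 1.33 and 1.04. The calls of SIT1 and FIT3 held in the fit without 8 h. LSO1, a short gene of the iron list, stood at the floor of 0.1 TPM at 7 and 8 h and was not called (adjusted p = 0.0819).

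The Aft1 motif TGCACCC, searched on both strands of the 300 bases before the start codon, lay before 16 of 31 iron genes, 51.6%, against 1.32% of 5703 windows. It is shown in capitals before FIT3, 285 and 184 bases before the start codon (chrXV:1061156-1061355, minus strand), and before SIT1, 188 bases before it (chrV:27357-27556, plus strand), which with FIT2 had the highest called differences of the list. A match is a run of letters and no measured binding.
FIT3: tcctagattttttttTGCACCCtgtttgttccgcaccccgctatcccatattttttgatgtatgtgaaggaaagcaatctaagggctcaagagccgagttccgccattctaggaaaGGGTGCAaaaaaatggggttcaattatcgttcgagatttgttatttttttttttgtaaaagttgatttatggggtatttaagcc
SIT1: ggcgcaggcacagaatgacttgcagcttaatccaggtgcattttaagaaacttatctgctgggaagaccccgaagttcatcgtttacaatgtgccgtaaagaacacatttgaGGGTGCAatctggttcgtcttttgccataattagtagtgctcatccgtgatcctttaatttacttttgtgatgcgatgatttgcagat

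OLE1, for the fatty acid desaturase, and 3 genes of ergosterol synthesis rose, and each of these enzymes uses oxygen. OLE1 read 576, 856 and 894 TPM and then 2336, 3413 and 3519 TPM (2.00, SE 0.27, adjusted p = 0.00351). Of 27 ergosterol genes 3 were called, all higher, against 2.77% of all genes called higher. ERG3, for the sterol C-5 desaturase, rose from 422, 704 and 677 TPM to 1479, 2267 and 2237 TPM (1.74, SE 0.28). ERG25 rose by 1.33 (SE 0.25) and ERG5 by 1.12 (SE 0.28). The list had a median of -0.04 that became 0.10 with median-of-ratios scaling. ERG1 and ERG11, whose enzymes also use oxygen, were not called (0.27, SE 0.22, and 0.58, SE 0.23). OLE1, ERG25 and ERG5 had their highest value of all 24 hours at 14 h, while ERG3, at 2524 TPM then and 1288 TPM at 16 h, reached 2861 TPM at 32 h. ELO2 and ELO3, for elongases of very long fatty acids, fell by 1.17 (SE 0.30) and 1.35 (SE 0.34), calls that median-of-ratios scaling did not keep.

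Permease and vitamin genes rose in part. Without overlap 12 of 39 genes of nitrogen uptake and catabolism were higher and 3 lower. The counts were 6 and 2 of 17 thiamine genes, 4 and 0 of 6 biotin genes, and 4 and 1 of 15 NAD and pyridoxine genes. Over all genes the shares were 14.0% and 22.9%. The medians of these lists were 0.18, 0.43, 1.04 and 0.22. AGP1, for a broad amino acid permease, read 16.0, 15.8 and 20.8 TPM and then 160.2, 199 and 139 TPM, with 88.7 TPM at 10 h (3.17, SE 0.21, adjusted p = 2.73e-05), the smallest adjusted p of the genes named here. BAP2, for a permease of branched-chain amino acids, rose by 1.61 (SE 0.22) and DUR3, for a urea carrier, by 1.21 (SE 0.23), the other 2 called among 39 genes of nitrogen uptake and catabolism. MEP2, for the high-affinity ammonium permease, overlapped and was not called (-0.97, SE 0.39). THI4, for thiazole synthesis, went from 61.6, 169.6 and 279 TPM to 564, 708 and 780.1 TPM (2.24, SE 0.52, adjusted p = 0.0457), and THI7, for the thiamine carrier, rose by 1.15 (SE 0.24). BIO5, for a carrier of a biotin precursor, rose by 1.71 (SE 0.25), and SNZ1 and SNO1, for pyridoxine synthesis, by 1.74 (SE 0.25) and 1.38 (SE 0.20). IZH1, of the zinc regulon, rose by 1.87 (SE 0.26) and PMA2, the minor copy of the plasma membrane proton pump, by 2.04 (SE 0.46), with PMA1 not called (-0.47, SE 0.27).

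**Figure D3:**
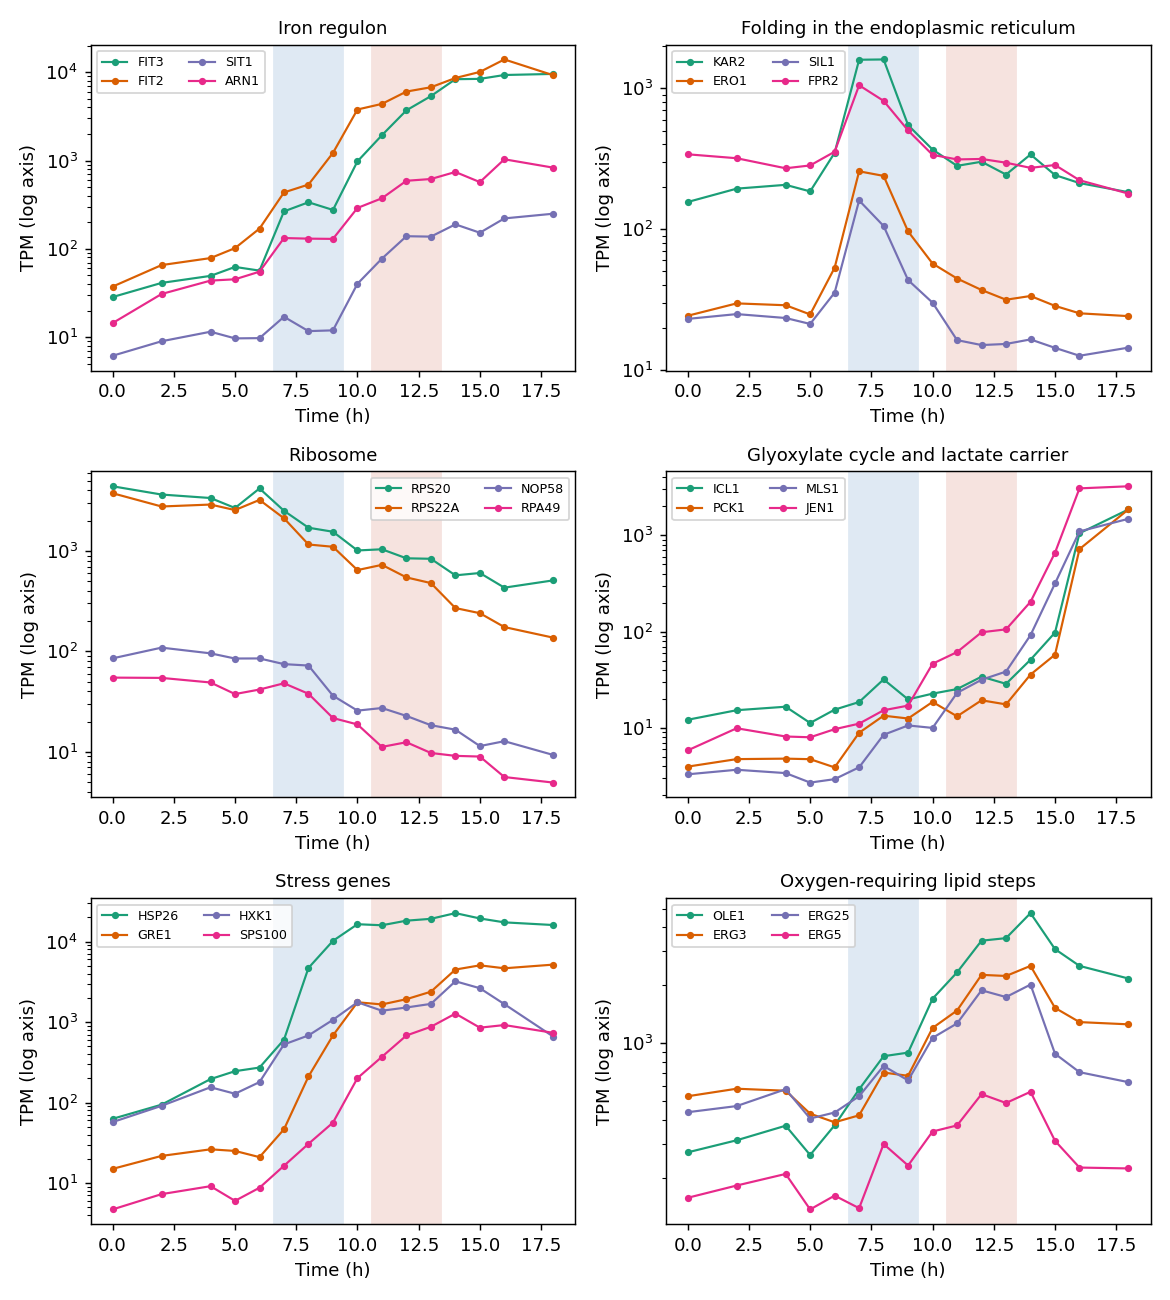
TPM on a log axis from 0 to 18 h in wild type for 4 genes of each of 6 groups, 1 point per library; the blue band marks 7 to 9 h and the red band 11 to 13 h. KAR2, ERO1, SIL1 and FPR2 peak at 7 to 8 h, FIT3 and SIT1 rise after 9 h, HSP26 goes from 604 to 10220.0 TPM within the blue band, and ICL1 and PCK1 pass 700 TPM at 16 h.

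Genes of protein folding in the endoplasmic reticulum were among the lowest, from a peak at 7 and 8 h. KAR2 (YJL034W, chromosome X 381327 to 383375), for the Hsp70 chaperone of that compartment, read 156 TPM at 0 h and 348 TPM at 6 h, then 1595, 1603 and 548 TPM at 7, 8 and 9 h. At 11, 12 and 13 h it read 281, 301 and 244 TPM, a call of -2.02 (SE 0.40, adjusted p = 0.0218). The later level of KAR2 thus lay above that of 0 h and below the peak. ERO1, for the oxidase that makes disulfide bonds, read 257, 239 and 96.3 TPM and then 44.6, 36.9 and 31.5 TPM (-2.25, SE 0.36, adjusted p = 0.0113), against 53.1 TPM at 6 h. SIL1, for the nucleotide exchange factor of Kar2, read 159.8, 105 and 43.4 TPM and then 16.3, 15.0 and 15.3 TPM (-2.47, SE 0.43, adjusted p = 0.0191), against 35.4 TPM at 6 h. Of 17 genes of this compartment, a list chosen after values were seen, 7 were called lower and 12 were lower without overlap, against 2.38% and 22.9% of all genes, with a median of -1.21; LHS1, SCJ1, FPR2 and SEC63 complete the 7. HAC1, whose product drives the unfolded protein response in yeast, read 2077, 1381 and 661 TPM and then 632, 629.6 and 619.8 TPM and was not called (-0.98, SE 0.36, adjusted p = 0.104). IRE1, for the sensor of that response, was not called (0.10, SE 0.23).

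These folding genes rest on 7 and 8 h: without 9 h, 14 of the 17 were called, against 399 of all 5714 genes called lower in that fit. The letters CAGCGTG, the core of the element bound by Hac1, were found on either strand before 2 of 17 genes of the list, 11.8%, against 1.26% of 5703 windows and 5.15% of the genes called lower. The window of KAR2 is shown with these letters in capitals, 160 bases before the start codon (chrX:381027-381226, plus strand).
KAR2: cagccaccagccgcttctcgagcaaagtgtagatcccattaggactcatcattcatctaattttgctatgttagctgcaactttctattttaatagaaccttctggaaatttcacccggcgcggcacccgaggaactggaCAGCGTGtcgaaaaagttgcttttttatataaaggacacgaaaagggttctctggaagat

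Genes for ribosomal proteins were lower as a list, most of them by less than 2-fold. All 82 cytosolic ribosomal protein genes had a negative difference, from -0.37 to -1.32 with a median of -0.72, and 71 were lower without overlap, against 22.9% of all genes, but 6 were called: RPL9A, RPS22A, RPS20, RPS21A, RPL14A and RPL15A. RPS22A read 2113, 1159 and 1099.96 TPM and then 727, 545 and 479 TPM (-1.27, SE 0.29, adjusted p = 0.0246). RPL9A read 565, 272 and 282 TPM and then 175, 136 and 114 TPM (-1.32, SE 0.29, adjusted p = 0.0246). With median-of-ratios scaling 0 of the 82 were called by limma and their median was -0.58. Without the 9 h library 23 were called, against 399 of all 5714 genes called lower in that fit. Many of these genes have near-identical copies, so single members are uncertain.

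Of 91 ribosome biogenesis genes 5 were called lower and no member higher, 39 were lower without overlap, against 22.9% of all genes, and the median was -0.52. NOP58, for a core protein of box C/D particles, read 74.7, 72.3 and 36.2 TPM and then 27.3, 22.8 and 18.4 TPM (-1.33, SE 0.28, adjusted p = 0.0204), and it was the 1 called with median-of-ratios scaling. NOG1 (-1.12), RRB1 (-1.02), UTP13 (-1.02) and GAR1 (-1.02) were the others. RPA49 and RPA34, subunits of RNA polymerase I, fell by 1.54 (SE 0.27) and 1.08 (SE 0.24), and RPA34 was not called with median-of-ratios scaling. Of 35 translation factor genes 0 were called by limma, with 22 lower at an unadjusted p under 0.05, against 20.2% of all genes, and TEF4 at -1.26 (adjusted p = 0.0544). Of 33 proteasome genes 0 were called, with 19 lower at that p, 27 lower without overlap, against 22.9% of all genes, and a median of -0.47. Mitochondrial ribosomal protein genes stood nearer to the median gene at -0.24, with 0 of 65 called and 14 lower at that p, near the share of all genes, and 1 higher.

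Biogenesis genes are known for the elements PAC, with letters GATGAG, and RRPE, with letters AAAATTTT, each searched on both strands. PAC stood before 91.2% of 91 biogenesis genes against 18.6% of 5703 windows, and RRPE before 75.8% against 9.73%. Genes called lower held them in 19.9% and 14.7%. The window of NOP58, the most changed of the list, is shown with 1 PAC and 2 RRPE in capitals, the RRPE copies 135 and 115 and the PAC 122 bases before the start codon (chrXV:898461-898660, minus strand). The window of RPL9A holds neither.
NOP58: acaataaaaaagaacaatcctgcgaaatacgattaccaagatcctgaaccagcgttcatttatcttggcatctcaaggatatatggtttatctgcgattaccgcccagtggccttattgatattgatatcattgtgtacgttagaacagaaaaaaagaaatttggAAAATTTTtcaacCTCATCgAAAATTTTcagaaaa

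Genes of amino acid synthesis were the list with the most lower calls. Of 61 genes under Gcn4 13 fell and 1 rose, 34 were lower and 2 higher without overlap, against 22.9% and 14.0% of all genes, and the median was -0.72. HIS1, for the entry step of histidine synthesis, read 468, 455 and 258 TPM and then 141, 121 and 99.8 TPM (-1.66, SE 0.26, adjusted p = 0.00571). ARG4, for argininosuccinate lyase, fell by 1.34 (SE 0.25) and SER3, for the entry step of serine synthesis, by 1.57 (SE 0.38), though SER3 is overlapped by a noncoding gene and lost its call without 9 h (-1.40). The 1 that rose was GDH3, for the glutamate dehydrogenase of non-fermentable growth, from 19.6, 38.4 and 38.4 TPM to 86.8, 134 and 129.8 TPM (1.87, SE 0.28). GCN4 itself was lower without overlap and not called (-0.35, SE 0.22). With median-of-ratios scaling 4 fell and 1 rose, against 70 and 194 of all 5714 genes. Without 9 h 27 fell and 1 rose, against 399 and 297. SAM2, for S-adenosylmethionine synthase, fell by 1.51 (SE 0.33) and MET16 by 1.33 (SE 0.26), the 2 called of 30 sulfur genes, and SAM2 has the close copy SAM1. IMD4, for a step of guanine nucleotide synthesis, fell by 1.41 (SE 0.33), while IMD2 went from 133 to 23.3 TPM within 7 to 9 h and was not called (-2.45, SE 0.64, adjusted p = 0.0668).

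Cell wall and cell cycle genes fell in part. Of 44 cell wall genes 9 were called lower, against 2.38% of all genes, and the median was -0.34. Without overlap 16 were lower and 11 higher, against 22.9% and 14.0% of all genes. CWP1, for a mannoprotein of the wall, read 258, 275 and 141 TPM and then 69.1, 52.5 and 33.6 TPM (-2.10, SE 0.32, adjusted p = 0.00762). SRL1, for a further wall mannoprotein and the most abundant of the 15 lowest genes, read 2334, 3069.6 and 1847 TPM and then 959.8, 761 and 525 TPM (-1.70, SE 0.28, adjusted p = 0.00762). CIS3 (-1.34, SE 0.30) and EXG2 (-1.20, SE 0.22) fell less.

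All 10 histone genes were lower without overlap, against 22.9% of all genes, with a median of -0.83, and 2 were called, HTA2 and HHF2. HTA2, for histone H2A, read 625, 338 and 254 TPM and then 151, 113 and 127 TPM (-1.53, SE 0.30, adjusted p = 0.0167), and HHF2, for histone H4, fell by 1.32 (SE 0.26). Of 28 genes of G1 and S 2 fell, the cyclin genes PCL1 (-1.33, SE 0.25) and CLN2 (-1.20, SE 0.28), against 2.38% of all genes called lower. Of 28 genes of G2 and M 5 fell, among them SWI5, for a factor of late mitosis (-1.47, SE 0.21), FKH1 (-1.29, SE 0.24) and the mitotic cyclin gene CLB1 (-1.24, SE 0.27). Without overlap 10 and 16 genes of these lists were lower and 1 and 0 higher, against 22.9% and 14.0% of all genes. SWI5 read 13.5, 15.6 and 12.8 TPM and then 5.29, 4.35 and 3.67 TPM. CLN3, for the cyclin that opens G1, was higher without overlap and not called (0.70, SE 0.23, adjusted p = 0.0637). In bulk RNA fewer cells in a phase and less RNA per cell cannot be told apart.

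**Figure D4:**
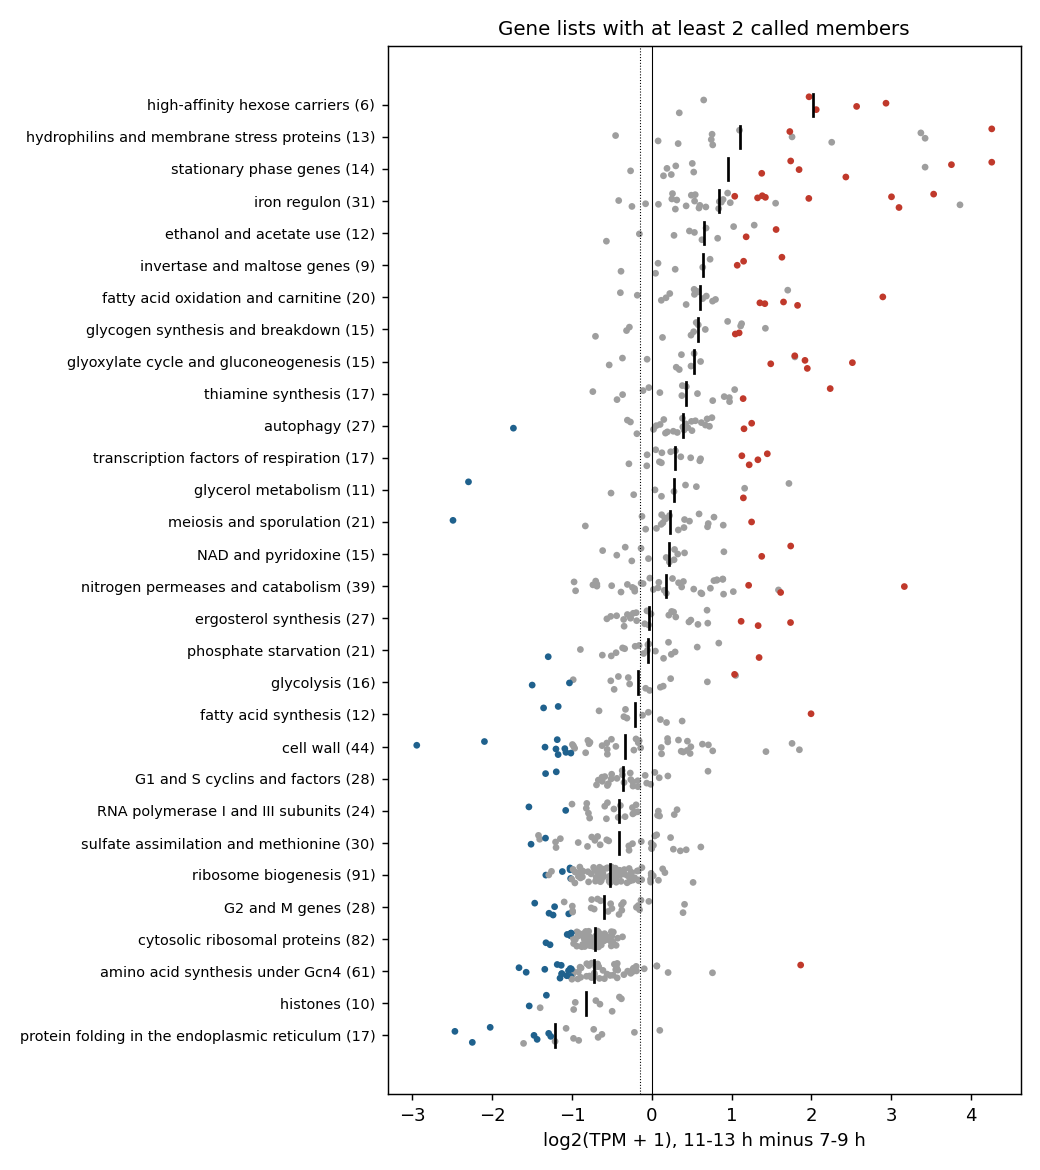
Difference in log2(TPM + 1) between 11-13 h and 7-9 h for each tested member of the gene lists with at least 2 called members, ordered by median (black bar); red members were called higher, blue lower and grey not, and the dotted line is the median of all genes at -0.15. High-affinity hexose carriers lie highest at 2.02 and endoplasmic reticulum folding, a list chosen after values were seen, lowest at -1.21.

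Among 27 autophagy genes 2 were called higher and 1 lower, against 2.77% and 2.38% of all genes. Without overlap 8 were higher and 2 lower, against 14.0% and 22.9%. ATG33, for mitophagy, and ATG15, for a vacuolar lipase, rose by 1.25 (SE 0.24) and 1.16 (SE 0.22). ATG17, for the scaffold of the starvation complex, fell from 58.3, 53.9 and 34.6 TPM to 14.6, 11.5 and 15.2 TPM (-1.73, SE 0.23, adjusted p = 0.00351). From 0 to 6 h ATG17 had read between 5.63 and 11.9 TPM, so it fell from a raised level. YLR312C, which RefSeq names ATG39, for a receptor of nuclear autophagy, rose from 13.1, 12.3 and 26.9 TPM to 67.5, 88.8 and 90.1 TPM (2.25, SE 0.28, adjusted p = 0.00351). BFR1, for an RNA-binding protein of polysomes, fell by 1.81 (SE 0.35), and SFG1, for a factor of filamentous growth, by 1.95 (SE 0.43). CTF19 rose by 1.34 (SE 0.23) and VTC3 fell by 1.30 (SE 0.27), both from the phosphate list, though CTF19 encodes a kinetochore protein and overlaps another gene. Genes that the deposited values list under a systematic name made up 45 of the 158 higher and 11 of the 136 lower calls. Some of these, such as YLR312C, have a symbol in RefSeq. YHR033W read 15.3, 21.2 and 18.8 TPM and then 83.7, 112 and 131 TPM (2.49, SE 0.22, adjusted p = 0.000226), and YOL155W-A was lowest of all called genes at -3.06.

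Among the other lists, those of ethanol fermentation (8 genes), vacuolar proteases (8), copper (8), phospholipid synthesis (18) and pheromone response (25) had 0 calls by limma. At an unadjusted p under 0.05, 1, 3, 2, 0 and 4 of them were higher and 1, 0, 0, 4 and 5 lower, against 11.0% and 20.2% of all genes. Without overlap 1, 4, 4, 0 and 5 were higher and 1, 0, 0, 2 and 6 lower, against 14.0% and 22.9%. Of 14 pentose phosphate genes 1 was called, SOL3, for a 6-phosphogluconolactonase, lower by -1.005 (SE 0.23), and of 12 pyrimidine genes FUR1, for uracil phosphoribosyltransferase, lower by -1.06 (SE 0.28), and neither was called with median-of-ratios scaling. Of 13 hydrophilin and membrane stress genes 2 were called higher, SPS100 and PHM7, which read 21.7, 63.3 and 64.4 TPM and then 123, 170.2 and 164 TPM (1.73, SE 0.40). Of 17 export genes RSB1, for a sphingoid base exporter, was called (1.34, SE 0.22), and of 21 meiosis and sporulation genes SPS2 was called higher (1.25, SE 0.22) and SPS4 lower. Single calls, of genes given above, stood among 4 genes of hexose phosphorylation, 14 of the zinc regulon, 25 of purine synthesis, 17 of hypoxia, 6 of biotin and 19 of pumps. Of 11 glycerol and 21 phosphate genes 1 was called in each direction, of 12 fatty acid synthesis genes 1 higher and 2 lower, of 17 thiamine and 15 NAD and pyridoxine genes 2 higher, and of 24 polymerase subunit genes 2 lower. The counts of calls in these lists stand beside 2.77% called higher and 2.38% called lower over all genes. A single call was not read as a change of its list.

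The calls mark a point on a longer course. At 10 h, which entered neither window, the 158 higher genes had covered a median of 73.6% of their difference (quartiles 56.5% and 85.3%) and the 136 lower genes 65.0% (48.8% and 89.8%). Between 0 and 6 h, 66 of the 158 stood at least 2-fold below the mean of 7 to 9 h, so for these the earlier window was already raised. Of the 136 lower genes 17 also stood at least 2-fold below that mean between 0 and 6 h, and these fell from a raised level. From 18 to 58 h 156 of the 158 stayed above and 135 of the 136 below the mean of 7 to 9 h. In that late window 118 of the higher genes and 112 of the lower genes lay further out than at 11 to 13 h, while 10 and 2 had gone back by at least 2-fold. Those later hours share the earlier window as reference and are a description with no test.

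**Figure D5:**
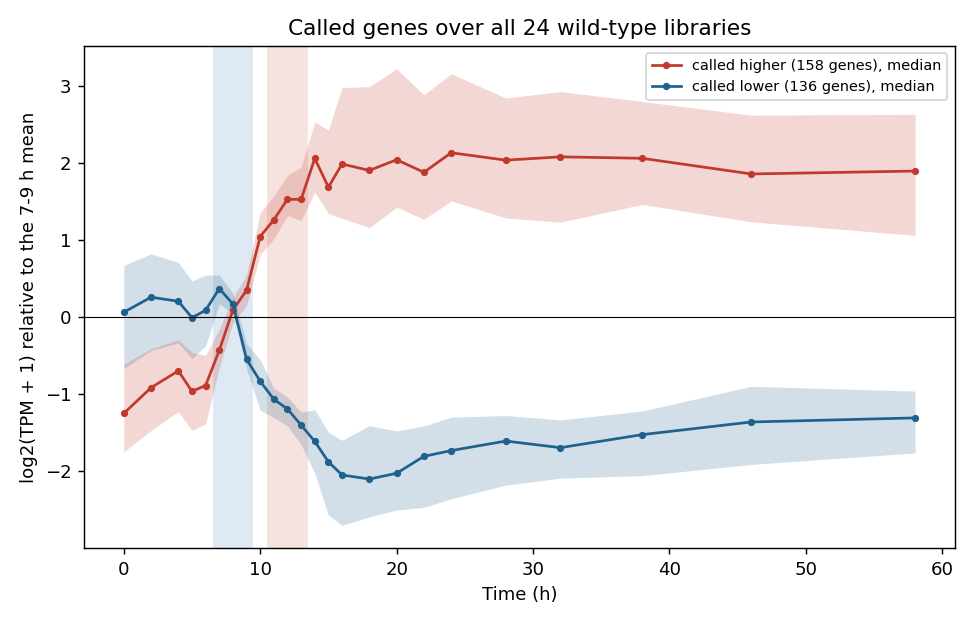
Median and quartiles (shaded) of log2(TPM + 1) relative to the mean of 7 to 9 h, over all 24 wild-type libraries, for the 158 genes called higher (red) and the 136 called lower (blue); the blue band marks 7 to 9 h and the red band 11 to 13 h. Outside both bands the values took no part in the calls; the higher genes start at -1.25 at 0 h and the lower genes at 0.07.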

How the data were processed

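Members and gene lists were chosen with earlier results of these data known. The deposited values are TPM for 5803 entries in each of 72 libraries; per the submitters' processing notes they were made with bcl2fastq 2.20.0.422 and Salmon 0.9.1 on sacCer3. The sources used here do not give Salmon's strand setting or its annotation. Read depth cannot be had from TPM, and no interval for counting error was made. Every column was mapped to a sample. Names matched RefSeq (assembly R64) for 5779 entries, 13 more by an older name, and 11 did not match.

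For the 6 wild-type libraries, genes with a mean of at least 1 TPM (5714) were fitted on log2(TPM + 1) with limma (3.58.1, R 4.3.3), moderated with a trend and robustly, with 4 residual degrees of freedom, 2-sided, adjusted over all genes, and tested on simulated data. A fold on this scale understates changes of low genes. Groups came from the strain and time labels. The text names the 15 highest and 15 lowest called genes with a symbol and at least 10 TPM in the higher window, up to 4 called members of each of 57 lists, fixed check genes, members that go against their list, and further genes picked after their values were seen (such as HSP26, GRE1 and INO1). The counts for 2 of these lists are not reported here. Alternatives were another scaling, pseudocounts of 0.1 and 5, other filters, plain moderation, all 24 wild-type libraries, a slope, leaving out each hour, and a length correction added after seeing the data.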

Additional observations from a re-analysis of the deposited data

How the results depend on the processing

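Depth is unknown and 1 library stands for each hour, so the number of calls rests on the spread between 3 hours. Of the counts, 158 higher and 136 lower, those with TPM rescaled over nuclear genes, pseudocounts of 0.1 and 5, no filter, a mean of at least 10 TPM, plain moderation and the slope stayed within 1.5 times. Median-of-ratios scaling called 70 lower, of which 69 were among the 136. Of 160 named genes, called or not in the main fit, 18 lost a call with it and 5 gained one. All 24 wild-type libraries in 6 windows called 240 higher. Adjusted p alone, with no fold threshold, called 247 and 302. Leaving out 1 library gave 5 to 297 higher and 0 to 399 lower: 148 and 83 without 7 h, 5 and 0 without 8 h, 297 and 399 without 9 h, 121 and 82 without 11 h, 63 and 29 without 12 h, and 58 and 18 without 13 h. Without 9 h 156 of the 158 and 133 of the 136 remained. The causes were not tested. The length correction, added after seeing the data, kept 149 of the 158 and 120 of the 136.

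Some differences that were not called turned sign: NDI1 to 0.106 by median of ratios, with -0.109 to 0.082 over the fits without 1 library, TDH3 to 0.063 by median of ratios, with -0.24 to 0.007, IRE1 to -0.009 by slope, with -0.049 to 0.258, and HSP12 to -0.169 without 7 h, with up to 1.557 without 9 h. No paired analysis was possible because the labels give no replicate numbers.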

Other observations

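The library of 10 h, between the windows, differed from its neighbours in short genes. From 9 to 10 h 83 genes were at least 2-fold higher and 406 at least 2-fold lower, and from 10 to 11 h 260 were higher and 50 lower. At 10 h 35 genes lay at least 2-fold under each of the 6 libraries of the windows and 1 lay as far above, MPH3. The 35 had a median coding length of 450.0 bases against 1218 for 5703 tested genes, and 19 of them were under 500 bases, against 12.8% of the genes tested. In genes of up to 300 bases the median deviation from the mean of the libraries was 0.26 at 9 h, -0.30 at 10 h and 0.21 at 11 h, and in genes over 3000 bases it was 0.37 at 8 h and -0.27 at 13 h. The 10 h library entered the slope and, as a window of its own, the fit of all 24 wild-type libraries.

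INO1, for inositol phosphate synthase, was among the most abundant transcripts at 3756, 3620.3 and 2295 TPM in the earlier window and 2462, 2489 and 1818 TPM in the later one (-0.49, SE 0.27, not called), and read 599 TPM at 15 h. PDC6, for a minor pyruvate decarboxylase, read 4.04 TPM at 7 h, 44.7 TPM at 9 h and 143 TPM at 13 h and was not called (2.89, SE 0.86, adjusted p = 0.0968 by limma). DBP2, for a helicase, went from 35.2 TPM at 7 h to 3.32 TPM at 9 h and stayed between 2.13 and 4.45 TPM at 11 to 13 h.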
